A study of Homo sapiens with 42 samples.

Results

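CGAS and 8 interferon-stimulated genes (OAS1, OAS2, OAS3, IFITM1, IFITM2, IFITM3, ISG15 and IRF9) were followed by symbol through HAP1 cells labelled as knockouts of NEIL DNA glycosylases. They are 9 of the 20515 entries with a gene symbol in the deposited matrix. Of these, 7 had a mean across libraries of at least 10 and were tested, and 2, OAS1 and IFITM3, had a mean under 10 and were too low to judge. Values are normalized read counts, which are reads divided by a factor for each library, so that 1 read had a value of 0.941 to 1.04.

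CGAS is a sensor of DNA in the cytosol that makes the messenger cGAMP, which activates STING and, through TBK1 and IRF3, the transcription of type I interferon genes. Secreted interferon binds IFNAR1 and IFNAR2, and the transcription factor ISGF3, which includes STAT2 and IRF9, then binds interferon-stimulated response elements near its target genes. Among those targets, OAS1, OAS2 and OAS3 make 2-5A, the activator of RNase L, upon binding double-stranded RNA. The IFITM proteins restrict virus entry at membranes, and ISG15 is a ubiquitin-like protein that is attached to other proteins and also secreted.

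HAP1 is a near-haploid adherent human line obtained from a chronic myeloid leukaemia line, and NEIL glycosylases remove oxidised bases from DNA. The series held 42 libraries of total RNA in 12 groups, of 5 genotypes (neil1, neil2, neil3, neil123 and wt) in either 200 µM BSO, an inhibitor of glutathione synthesis, for 48 h, begun after 4 h, or media. The label neil123 names all of NEIL1, NEIL2 and NEIL3.

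The library names fall into 2 label sets. Names without a final letter covered neil1, neil2 and wt with 3 libraries for each treatment, and names that end in A or B covered neil3, neil123 and wt with 4. Each knockout was set against wt of its own label set, so neil1 and neil2 share their wt libraries, as do neil3 and neil123. The number in a replicate name was read as a line, which the labels do not spell out: lines 12 and 13 for neil1, 11 and 12 for neil2, 1 and 2 for each of neil3 and neil123, and 1.1, 1.3 and p1 for wt. Each knockout thus rested on 2 lines, and line 12 of neil1 and line 12 of neil2 gave 1 library per treatment. Nothing in the labels shows how the lines were made, so the p-values reflect only how these samples vary, and part of that variation may be technical.

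The lettered libraries held 26.8 M to 28.7 M reads and the unlettered ones 29.9 M to 30.7 M. The total of NEIL2 was lower in media in neil2 (299.8 to 328) than in wt (487 to 613) and lower in neil123 (215 to 242) than in wt (363 to 425). NEIL3 in media was at 381 to 472 in neil123 and 409.6 to 614 in neil3, against 589.7 to 671 in wt, so that neil3 overlapped wt, and with BSO it was at 528 to 714 in neil3 and 619 to 655 in wt. NEIL1 in media overlapped wt both in neil1 (284 to 513 in neil1, 309.6 to 403 in wt) and in neil123 (987 ± 109 in neil123, 852 ± 92.2 in wt, SD, n = 4 each). The totals thus show no loss of NEIL1 RNA in neil1 or neil123, and a gene total does not check a small edit in the coding sequence. BCR (705 to 1058), ABL1 (557 to 1316) and VIM (11763 to 22134) were present in every library. Of the markers of HAP1 and its leukaemia origin, KIT (-2.17, adjusted p = 0.000144), ABL1 (0.72, adjusted p = 5.33e-07) and BCR (0.21, adjusted p = 0.00858) were called in neil123 in media, and LYL1 in neil3 (-2.10, adjusted p = 0.000931); their part in the members' values was not tested. Of 12 markers of blood and immune cells, 7 were in the table and 6 of these had a mean under 10. PTPRC, the pan-leukocyte marker, was at 0 to 2.92.

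Letters that match an interferon-stimulated response element, GAAANNGAAA or GAAANGAAA on either strand, were found in 5 of the 6 members that have a promoter in the RefSeq table (GRCh38.p14, from 250 bases before to 50 bases after the start). The exception was IRF9, and the table held no promoter of CGAS, OAS2 or IFITM2. Of these members, 4 held GAAANNGAAA and 2 held GAAANGAAA. Among all 35116 promoters of the table, 3.57% held GAAANNGAAA and 3.12% held GAAANGAAA, and the share with either was not counted. Stretches around the matches are shown, with the matches in capitals. In OAS3 and ISG15 neighbouring matches overlap. The stretches lie at chr11:313985-314058 (IFITM1, plus strand), chr11:320871-320927 (IFITM3, minus strand), chr1:1013369-1013414 (ISG15, plus strand), chr12:112906930-112906968 (OAS1, plus strand) and chr12:112938311-112938486 (OAS3, plus strand), and read 5′ to 3′ on the gene's strand:
IFITM1: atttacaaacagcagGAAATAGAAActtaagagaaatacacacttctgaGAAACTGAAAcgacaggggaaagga
IFITM3: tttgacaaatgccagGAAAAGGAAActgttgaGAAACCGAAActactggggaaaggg
ISG15: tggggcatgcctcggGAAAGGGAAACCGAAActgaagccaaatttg
OAS1: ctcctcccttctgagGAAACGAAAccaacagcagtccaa
OAS3: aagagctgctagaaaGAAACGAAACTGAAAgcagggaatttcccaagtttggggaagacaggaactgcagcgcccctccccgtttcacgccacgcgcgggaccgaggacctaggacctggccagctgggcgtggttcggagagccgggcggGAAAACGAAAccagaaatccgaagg

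A match describes these letters and does not show that a factor binds there.

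The members lie on 5 chromosomes in GENCODE 29 (GRCh38). OAS1, OAS3 and OAS2 are neighbours on chromosome 12 (112906777 to 112933222, 112938352 to 112973249 and 112978395 to 113011723, all on the plus strand). IFITM2 (307631 to 315272) and IFITM1 (313506 to 315272) overlap on the plus strand of chromosome 11, and IFITM3 (319669 to 327537) lies beside them on the minus strand. CGAS is on the minus strand of chromosome 6 (73413515 to 73452276), ISG15 on the plus strand of chromosome 1 (1001138 to 1014540) and IRF9 on the plus strand of chromosome 14 (24161053 to 24166565).

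Neither OAS1 nor IFITM3 could be judged. OAS1 had 117 reads over all 42 libraries, a mean of 2.74 and a range of 0 to 12.7, with 11 libraries at 0. IFITM3 had 372 reads, a mean of 8.8 and a range of 0 to 20.8, with 1 library at 0. Of the transcripts' stretches of 50 bases, 16.0% in IFITM3, 32.0% in IFITM1 and 29.7% in IFITM2 also occur in another IFITM gene, so how reads were shared among the IFITM genes is uncertain. No such stretch was shared among the OAS genes.

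CGAS, the DNA sensor, was low in both neil2 lines and both neil3 lines, and was not low in neil1 or neil123. In neil2 line 11 the 2 BSO libraries had 1.01 and 3.95 and the 2 media libraries 0.969 and 1.95. In neil2 line 12 the values were 190.1 with BSO and 188 in media. Unlettered wt had 330.3, 400.4 and 352 with BSO and 411, 454 and 406 in media. Every neil2 library was thus under every wt library of its label set, and line 11 was far under line 12. The 4 libraries of line 11 held 8 CGAS reads together (exact Poisson 95% interval 3.45 to 15.8). Their mean of 1.97 was 0.502% of the mean of 392 in the 6 unlettered wt libraries (0.217% to 0.989%, counting error only).

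As a genotype, neil2 was lower than wt by -5.36 ± 1.01 on the log2(value + 1) scale in media (SE; limma, Benjamini-Hochberg adjusted p = 0.00128) and by -4.86 ± 1.01 with BSO (adjusted p = 0.00188). The size of that difference came from line 11: without it the differences were -1.17 in media (adjusted p = 0.0326) and -0.92 with BSO (adjusted p = 0.144). With 1 mean per line the calls were lost, at -4.31 in media (adjusted p = 0.0582) and -3.88 with BSO (adjusted p = 0.07). They were also lost in a fit of only the compared groups (adjusted p = 0.092 and 0.0689). Line by line, on 1 mean per replicate name over both treatments, line 11 differed from wt by -7.15 ± 0.18 (adjusted p = 2.12e-14). That fitted value depends on the pseudocount, since the line had few reads. Line 12 differed by -1.04 ± 0.23 (adjusted p = 0.0211), or -0.98 without wt 1.3 (adjusted p = 0.0556). Lines 12 of neil1 and of neil2 have 1 replicate name each, so that every test of these 2 lines assumes that they vary as the other lines do.

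In neil3 line 1, CGAS had 148 and 106 with BSO and 153 and 135 in media. In neil3 line 2 it had 81.9 and 75.4 with BSO and 106 and 88.4 in media. Lettered wt had 476, 523, 515 and 519.6 with BSO and 567, 536, 528 and 582 in media. All 8 neil3 libraries lay under all 8 lettered wt libraries, with media means of 121 ± 28.8 in neil3 and 553 ± 25.5 in wt (SD, n = 4 each). On 1 mean per replicate name, neil3 line 1 was lower by -1.97 ± 0.17 (adjusted p = 7.06e-07) and line 2 by -2.59 ± 0.17 (adjusted p = 3.09e-08).

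The genotype test for CGAS in neil3 did not pass in the fit of all 42 libraries, at -2.22 ± 0.87 in media (adjusted p = 0.612) and -2.34 ± 0.87 with BSO (adjusted p = 0.596). That fit shares 1 spread over all groups, and the media SD of neil2 was 107 around a mean of 63.5. Fitted with only the compared groups the adjusted p was 7.51e-05 in media and 0.000234 with BSO. Without the neil2 groups it was 3.45e-10 and 1.21e-10.

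CGAS in neil1 line 12 had 538 with BSO and 711 in media, and line 13 had 437 and 529 with BSO and 525 and 608 in media. All neil1 libraries lay above the unlettered wt libraries of the same treatment, but the genotype differences of 0.53 ± 1.01 in media (adjusted p = 0.871) and 0.47 with BSO (adjusted p = 0.922) did not pass. By line, the limma values of 0.66 for line 12 (adjusted p = 0.128) and 0.42 for line 13 (adjusted p = 0.327) did not pass either, whereas edgeR on the recovered reads called both (adjusted p = 0.00552 and 0.0439).

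In neil123 line 1, CGAS had 554 and 623 with BSO and 617 and 661 in media, and line 2 had 377 and 420.1 with BSO and 447 and 451 in media. The lettered wt libraries lay between the values of the 2 lines. The genotype differences were -0.05 in media (adjusted p = 0.987) and -0.07 with BSO. From high to low, the genotypes ranked by CGAS against their own wt as neil1, neil123, neil3 and neil2. This order runs across label sets and was not tested. The differences of neil1 (0.53 ± 1.01) and neil123 (-0.05 ± 0.87) in media were smaller than their SE. The last place of neil2 rested on line 11: without it neil2 (-1.17 in media) lay above neil3 (-2.22). In limma's genotype tests neither neil1 nor neil123 passed, also without the neil2 groups (adjusted p = 0.252 for neil1 and 0.932 for neil123 in media). CGAS was thus low in both single knockouts neil2 and neil3, and the libraries that lack all 3 glycosylases by label had levels around wt.

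**Figure D1:**
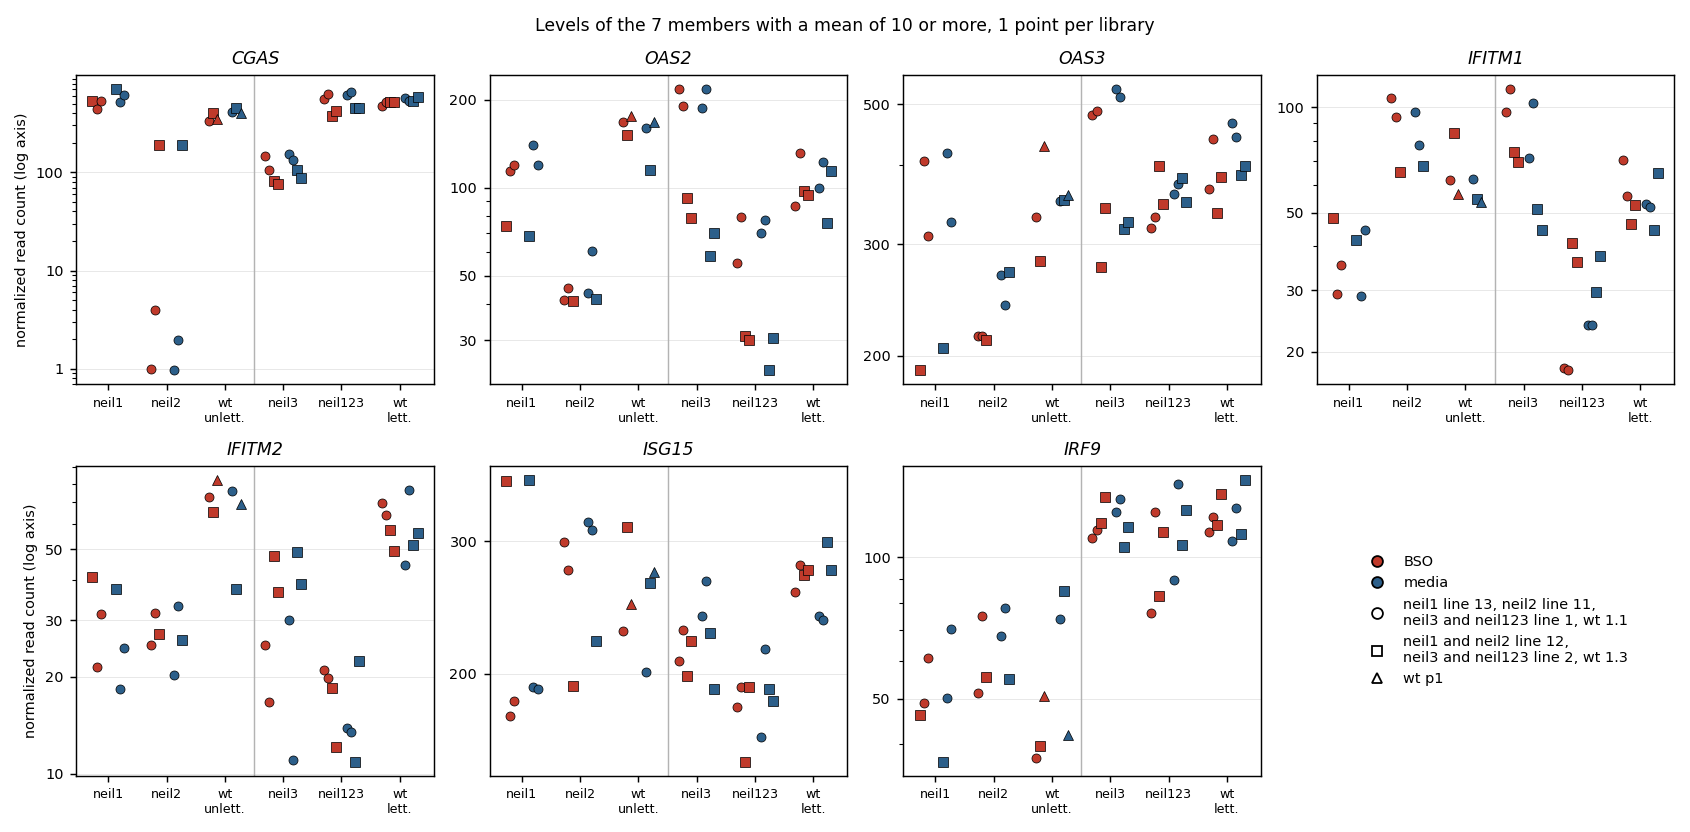
Normalized read count (log axis) of the 7 tested members, 1 point per library, with BSO in red and media in blue and the line as the shape of the point; knockouts stand left of wt of their label set. CGAS in neil2 line 11 is at 0.969 to 3.95 and in neil3 at 75.4 to 153, under every wt library, and IRF9 is higher in the lettered wt than in the unlettered wt.

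To see whether CGAS was low alone, the 38 tested protein-coding genes within 10 Mb of its start were set beside it. In neil2 line 11 their median was 0.03, against 0.01 over all genes, and 4 were called lower and 4 higher. The lowest were COL9A1 (-3.92, adjusted p = 1.07e-06), ADGRB3 (-2.80, adjusted p = 4.97e-08) and MEI4 (-2.65, adjusted p = 0.00312), all farther from CGAS than the 10 nearest, and 0 of the 38 were as low as CGAS. The 10 nearest (5 on each side) ranged from -0.12 to 0.35, and 2 of them were called, both higher. MTO1, the nearest gene at 0.009 Mb, which acts in modifying mitochondrial tRNA, differed by -0.02 (adjusted p = 0.88). EEF1A1, a translation elongation factor at 0.072 Mb, differed by 0.08.

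The 10 nearest genes ranged from -0.45 to 1.05 in neil2 line 12 (2 called), from -0.36 to 0.35 in neil3 line 1 (2 called) and from -0.35 to 0.50 in neil3 line 2 (1 called). None of the 10 was thus as far under wt as CGAS in any of these 4 lines. Among all 38, MEI4, a gene of low level (mean 10.3), was lower than CGAS in neil2 line 12 (-1.92, adjusted p = 0.217) and near it in neil3 line 2 (-2.56, adjusted p = 0.0113). COL9A1 was the lowest in neil3 line 1 (-1.59, adjusted p = 0.0144).

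**Figure D2:**
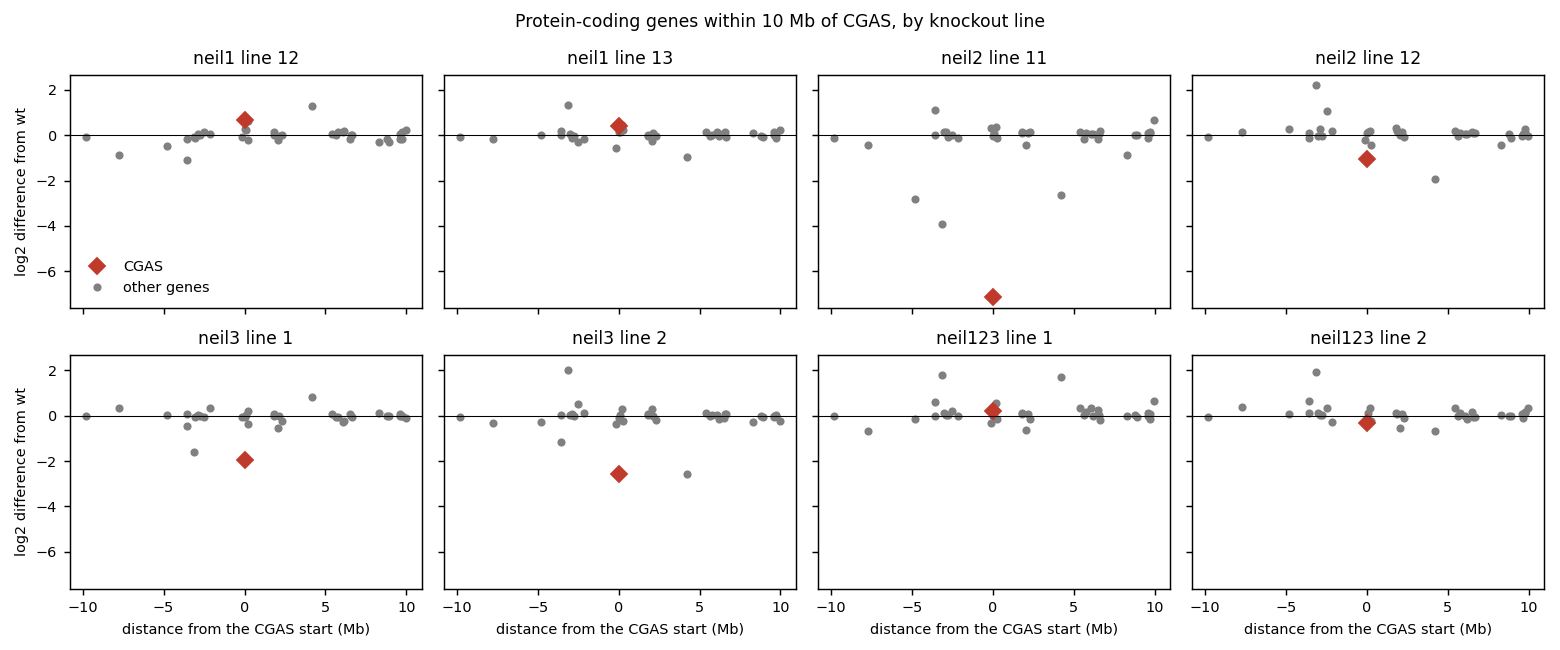
Log2 difference from wt of the tested protein-coding genes within 10 Mb of the CGAS start (x axis, distance in Mb) in each of the 8 knockout lines, with CGAS as a red diamond. In neil2 line 11 CGAS is at -7.15 and its 10 nearest genes lie between -0.12 and 0.35.

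OAS2, an oligoadenylate synthetase, was low in both neil2 lines and had opposite signs in the 2 neil3 lines. In neil2 line 11 it had 41.3 and 45.4 with BSO and 43.6 and 60.6 in media, and line 12 had 40.9 with BSO and 41.6 in media. Unlettered wt had 167, 151 and 176 with BSO and 160.1, 115 and 168 in media. No neil2 library reached the lowest wt library, and here the 2 lines were alike. The differences were -1.59 ± 0.43 in media (limma, adjusted p = 0.0167) and -1.93 ± 0.43 with BSO (adjusted p = 0.00341). In media the call was lost without the wt 1.1 library (-1.52, adjusted p = 0.0737) and without 1 of the 2 media libraries of neil2 line 11 (-1.52, adjusted p = 0.0545). By line, line 11 was lower by -1.69 ± 0.16 (adjusted p = 1.01e-06) and line 12 by -1.88 ± 0.21 (adjusted p = 1.92e-05).

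In neil123, OAS2 had 55.1 and 79.3 with BSO and 69.7 and 77.7 in media in line 1, and 31.1 and 30.2 with BSO and 23.7 and 30.5 in media in line 2. Lettered wt had 86.5, 131, 97.6 and 94.2 with BSO and 99.8, 122, 75.9 and 114 in media. Line 2 was under every wt library, and line 1 reached the lowest wt library in media. The genotype differences of -1.17 ± 0.38 in media (adjusted p = 0.0627) and -1.15 with BSO (adjusted p = 0.0528) did not pass. Both passed with line as a random block (adjusted p = 0.0325 each), with an additive label-set term (adjusted p = 0.0405 in media and 0.0274 with BSO) and with no label-set term (adjusted p = 0.00763 and 0.00518). Only the BSO difference passed with the replicate name as a block (adjusted p = 0.0459) or with only the compared groups (adjusted p = 0.0211). By line, line 1 was lower by -0.53 ± 0.16 (adjusted p = 0.0359), a call lost without line 1 replicate A, wt 1.1B or wt 1.3B, and line 2 by -1.78 ± 0.16 (adjusted p = 3.7e-07).

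In neil3 line 1, OAS2 had 218 and 190.3 with BSO and 187 and 218 in media, all above the lettered wt. In neil3 line 2 it had 92.2 and 78.4 with BSO and 58.4 and 70 in media, lower than or among the wt values. Line 1 was higher than wt by 0.99 ± 0.16 (adjusted p = 0.000552), and line 2 stood at -0.45 (adjusted p = 0.193). In neil1, line 12 had 73.9 with BSO and 68.3 in media, and line 13 had 114 and 119 with BSO and 139.7 and 119.6 in media. Line 12 was lower than wt by -1.11 ± 0.21 (adjusted p = 0.00426), and line 13 stood at -0.33 (adjusted p = 0.413).

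OAS3, the largest of the oligoadenylate synthetases, moved less. In neil2 it had 215 and 215 with BSO and 268 and 241 in media in line 11, and 212 with BSO and 271 in media in line 12. Unlettered wt had 332, 282 and 429 with BSO and 352, 353 and 359 in media. Every neil2 library lay under every wt library. The difference passed with BSO (-0.68 ± 0.22, adjusted p = 0.0366, in 37 of the 42 fits that leave out 1 library) and not in media (-0.45 ± 0.22, adjusted p = 0.198). Line 11 was lower by -0.57 ± 0.12 (adjusted p = 0.00186), and line 12 stood at -0.54 (adjusted p = 0.0662).

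In neil1 line 12, OAS3 had 189.8 with BSO and 206 in media, lower than wt by -0.82 ± 0.15 (adjusted p = 0.00309). Line 13 had 407 and 309 with BSO and 419 and 326 in media, around the wt values. In neil3 line 1 it had 481 and 488 with BSO and 529 and 513 in media, and in line 2 it had 276 and 343 with BSO and 317 and 325 in media. Lettered wt had 367, 441, 337 and 383 with BSO and 466, 444, 386 and 399.7 in media. Neither neil3 line passed against wt. In neil123 OAS3 had 319 and 331 with BSO and 361 and 374 in media in line 1, and 399.7 and 348 with BSO and 382 and 349.9 in media in line 2. Against wt it stood at -0.21 in media and -0.13 with BSO, which did not pass.

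IFITM2, a membrane protein that restricts virus entry, was low in neil123 and neil2 and had negative differences in all 8 knockout lines. In neil123 line 1 it had 21 and 19.8 with BSO and 13.9 and 13.5 in media, and in line 2 it had 18.5 and 12.1 with BSO and 10.9 and 22.4 in media. Lettered wt had 69.8, 63.9, 57.4 and 49.5 with BSO and 44.8, 76.4, 51.6 and 56.1 in media. The highest neil123 library was under the lowest wt library. In media neil123 averaged 15.2 ± 5.0 and wt 57.2 ± 13.6 (SD, n = 4 each), a difference of -1.87 ± 0.33 (limma, adjusted p = 0.000262). With BSO it was -1.71 ± 0.33 (adjusted p = 0.000758). The media call was kept in every alternative that tested IFITM2, and the BSO call was lost only with 1 mean per line (adjusted p = 0.0524). Both lines passed, line 1 at -1.73 ± 0.26 (adjusted p = 0.000157) and line 2 at -1.85 ± 0.26 (adjusted p = 7.36e-05).

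In neil2, IFITM2 had 25.2 and 31.6 with BSO and 20.3 and 33.2 in media in line 11, and 27.3 with BSO and 26.1 in media in line 12. Unlettered wt had 72.8, 65.4 and 82.2 with BSO and 75.7, 37.7 and 69 in media. No neil2 library reached wt, whose media library of line 1.3 stood apart at 37.7. The differences were -1.13 ± 0.38 in media (adjusted p = 0.0474) and -1.36 ± 0.38 with BSO (adjusted p = 0.0137). The media call held in 18 of the 42 fits that leave out 1 library (-1.44 to -0.94). The BSO call was lost without the wt p1 library (-1.28, adjusted p = 0.0613) or 1 of the 2 BSO libraries of neil2 line 11 (-1.29, adjusted p = 0.0544). Line 11 was lower by -1.24 ± 0.27 (adjusted p = 0.00308; -0.99 and adjusted p = 0.0518 without 1 of its 2 replicates), and line 12 stood at -1.26 (adjusted p = 0.0644).

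In neil3 line 1, IFITM2 had 25.2 and 16.7 with BSO and 30.2 and 11 in media. In line 2 it had 47.7 and 36.7 with BSO and 49 and 38.9 in media. Line 1 lay under all lettered wt libraries and was lower by -1.53 ± 0.26 (adjusted p = 0.000982; -1.04 and adjusted p = 0.0695 without replicate B), whereas line 2 reached wt in media and stood at -0.43 (adjusted p = 0.696). In neil1, line 12 had 41 with BSO and 37.7 in media, and line 13 had 21.5 and 31.5 with BSO and 18.3 and 24.7 in media. Line 13 was lower than wt by -1.43 ± 0.27 (adjusted p = 0.00556; -1.20 and adjusted p = 0.0893 without 1 of its 2 replicates), and line 12 stood at -0.72 (adjusted p = 0.281). As genotypes, neil1 stood at -1.15 in media (adjusted p = 0.188) and neil3 at -0.96 (adjusted p = 0.42), which did not pass.

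IFITM1, the neighbour of IFITM2 and also a restriction factor, was low in neil123 and had positive differences in neil2 and neil3. In neil123 it had 18 and 17.7 with BSO and 23.9 and 23.8 in media in line 1, and 40.8 and 36.2 with BSO and 29.6 and 37.6 in media in line 2. Lettered wt had 70.8, 55.9, 46.3 and 52.4 with BSO and 53, 51.9, 44.5 and 65 in media. All neil123 libraries were under all wt libraries, and line 1 was the lower of the lines under both treatments. The differences were -0.89 ± 0.25 in media (limma, adjusted p = 0.0282) and -1.05 ± 0.25 with BSO (adjusted p = 0.00662). The media call held in 36 of the 42 fits that leave out 1 library (adjusted p = 0.0183 to 0.11) and was lost with 1 mean per line (adjusted p = 0.354). The BSO call was also lost with 1 mean per line (adjusted p = 0.176), without line wt 1.1 (-0.88, adjusted p = 0.174) and without line neil123 1 (-0.52, adjusted p = 0.363). Line 1 was lower by -1.35 ± 0.16 (adjusted p = 1.95e-05), and line 2 by -0.59 ± 0.16 (adjusted p = 0.0283), a call lost without wt 1.1A, wt 1.3B or either replicate of line 2.

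In neil2, IFITM1 had 106 and 93.8 with BSO and 96.9 and 78.1 in media in line 11, and 65.3 with BSO and 67.7 in media in line 12. Unlettered wt had 61.9, 84.2 and 56.5 with BSO and 62.3, 54.6 and 53.5 in media. In media all neil2 libraries were above wt, and with BSO line 12 was among them. The genotype differences of 0.49 ± 0.29 (adjusted p = 0.284) and 0.37 (adjusted p = 0.403) did not pass. Line 11 was higher by 0.59 ± 0.17 (adjusted p = 0.0204), a call lost without wt p1 or without either replicate of line 11.

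In neil3 line 1, IFITM1 had 96.8 and 113 with BSO and 71.4 and 103 in media. In line 2 it had 74.6 and 69.5 with BSO and 51.1 and 44.7 in media. Line 1 was above every lettered wt library and higher by 0.79 ± 0.16 (adjusted p = 0.00728; 0.60 and adjusted p = 0.208 without replicate B), whereas line 2 overlapped wt at 0.11 (adjusted p = 0.964). In neil1, line 12 had 48.2 with BSO and 41.8 in media, and line 13 had 29.3 and 35.3 with BSO and 28.9 and 44.6 in media. All neil1 libraries lay under all unlettered wt libraries. Line 13 was lower by -0.83 ± 0.17 (adjusted p = 0.0124; lost without wt 1.3 or 1 of its 2 replicates), and line 12 stood at -0.44 (adjusted p = 0.30).

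The differences of IFITM1 and IFITM2 thus had the same sign in both lines of neil1 and neil123 and opposite signs in all 4 lines of neil2 and neil3, with both genes called in neil2 line 11 and in neil3 line 1. Over the 42 libraries, their log2 values minus the wt mean of the same label set and treatment had a Pearson r of 0.27. This r is a description of libraries that share lines and depth.

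ISG15, the ubiquitin-like modifier, was low in neil123. In neil123 it had 181 and 192 with BSO and 165 and 216 in media in line 1, and 153 and 192 with BSO and 191 and 184 in media in line 2. Lettered wt had 257, 279, 271 and 275 with BSO and 239, 236, 299.5 and 275 in media. All neil123 libraries were under all wt libraries. The difference with BSO passed (-0.59 ± 0.18, limma, adjusted p = 0.0394, in 34 of the 42 fits that leave out 1 library) and that in media did not (-0.47 ± 0.18, adjusted p = 0.152). The BSO call was lost with 1 mean per line (adjusted p = 0.419), with no filter on low values (adjusted p = 0.0564) and without any 1 of the 4 lines compared (adjusted p = 0.13 to 0.265). Both lines passed, line 1 at -0.50 ± 0.11 (adjusted p = 0.00474; -0.38 and adjusted p = 0.133 without replicate A) and line 2 at -0.56 ± 0.11 (adjusted p = 0.00168).

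In neil1 the lines differed: line 12 had 361 with BSO and 362 in media, and line 13 had 176 and 184 with BSO and 192 and 191 in media. Unlettered wt had 228, 313 and 248 with BSO and 201, 264 and 273 in media, between the 2 lines. Line 12 was higher by 0.52 ± 0.14 (adjusted p = 0.0466, called in 5 of the 20 fits that leave out 1 replicate name), and line 13 stood at -0.44 (adjusted p = 0.0517). In neil2, ISG15 had 299 and 275 with BSO and 318 and 311 in media in line 11, and 193 with BSO and 221 in media in line 12. In neil3 it had 208 and 229 with BSO and 239 and 266 in media in line 1, and 199 and 221 with BSO and 227 and 191 in media in line 2. No neil2 or neil3 line passed against wt.

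IRF9, the DNA-binding subunit of ISGF3, passed in no comparison of knockout and wt and in none of the 8 lines. It had 46.2 with BSO and 36.7 in media in neil1 line 12, and 48.8 and 61.1 with BSO and 50.1 and 70.2 in media in line 13. It had 51.3 and 75 with BSO and 67.8 and 78.1 in media in neil2 line 11, and 55.6 with BSO and 55.1 in media in line 12. Unlettered wt had 37.4, 39.6 and 50.5 with BSO and 73.8, 84.7 and 41.8 in media. The neil1 and neil2 libraries overlapped wt in media, and with BSO the neil2 libraries lay above wt (0.50 ± 0.22, adjusted p = 0.127).

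In the lettered set IRF9 had 109.9, 114, 118 and 134 with BSO and 125, 133, 105 and 116 in media in neil3. It had 76.1, 125, 82.7 and 113 with BSO and 89.6, 143, 106 and 126 in media in neil123, and 113, 122, 117 and 136 with BSO and 108, 127, 112 and 146 in media in wt. The 3 genotypes overlapped. The line differences ranged from -0.33 in neil1 line 12 to 0.37 in neil2 line 11.

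The label sets themselves differed for 3 members in wt cells, and 49.4% of all genes were called between them. IRF9 was higher in lettered than in unlettered wt by 1.22 ± 0.16 (limma on 1 mean per replicate name, adjusted p = 1.37e-05), OAS2 lower by -0.61 ± 0.14 (adjusted p = 0.00159) and CGAS higher by 0.44 ± 0.15 (adjusted p = 0.0249). The CGAS call was lost without wt 1.1 (0.40, adjusted p = 0.0872), 1.3B (0.42, adjusted p = 0.0533) or p1 (0.42, adjusted p = 0.07). For these genes a level in neil1 or neil2 cannot be set against one in neil3 or neil123, because genotype and label set cannot be told apart there.

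Counted by genotype in media, 0 of 7 members passed in neil1 (0.300% of all genes were called), 3 fell in neil2 (CGAS, OAS2 and IFITM2; 6.22% of all genes were called lower), 0 passed in neil3 (0.440%) and 2 fell in neil123 (IFITM1 and IFITM2; 2.39% lower). With BSO, 0 passed in neil1 (0.202%), 4 fell in neil2 (the same 3 and OAS3; 8.43% lower), 0 passed in neil3 (0.405%) and 3 fell in neil123 (IFITM1, IFITM2 and ISG15; 3.57% lower). None rose. edgeR on the recovered reads also called 0 members in neil1 and neil3 under either treatment. At an unadjusted p under 0.05 there was 1 member in neil1 in media (IFITM2) and 2 with BSO (IFITM1 and IFITM2). In neil3 there were 2 in media (CGAS and IFITM2) and 3 with BSO (CGAS, IFITM1 and IFITM2). The shares above are for adjusted p. The share of all genes at the unadjusted threshold is not given here, so the unadjusted counts cannot be set against it.

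Counted by overlap in media, the libraries of knockout and wt did not overlap for 2 members in neil1 (15.2% of all genes), 5 in neil2 (28.0%), 1 in neil3 (3.85%) and 4 in neil123 (12.9%). With BSO there were 4 such members in neil1 (14.3%), 5 in neil2 (34.1%), 3 in neil3 (3.78%) and 4 in neil123 (16.8%). The median log2 difference of the 7 members in media was -0.33 in neil1 (0.02 over all genes), -0.45 in neil2 (0.02), -0.05 in neil3 (0.00) and -0.47 in neil123 (-0.00). With BSO it was -0.25 in neil1 (-0.00 over all genes), -0.68 in neil2 (0.01), -0.03 in neil3 (-0.00) and -0.59 in neil123 (0.01). IFITM2 had a difference under 0 in all 4 knockouts under both treatments, as had 5.13% of all genes.

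By line, 25 of the 56 pairs of a member and a line passed. In neil1 1 member rose and 2 fell in line 12 (4.65% of all genes were called), and 2 fell in line 13 (2.21%). In neil2 1 rose and 4 fell in line 11 (22.8%), and 2 fell in line 12 (2.48%). In neil3 2 rose and 2 fell in line 1 (4.08%), and 1 fell in line 2 (3.17%). In neil123 4 fell in line 1 (5.01% of all genes were called lower) and 4 in line 2 (9.76% called in either direction). The 4 members that fell were the same in both neil123 lines, namely OAS2, IFITM1, IFITM2 and ISG15. In neil2, CGAS and OAS2 fell in both lines, in neil3 CGAS fell in both, and in neil1 no member passed in both.

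Set directly against each other, the 2 lines of a genotype differed for 3 members in neil1 (6.89% of all genes), 2 in neil2 (6.37%), 4 in neil3 (5.89%) and 1, OAS2, in neil123, where line 1 was the higher (0.740% of all genes). CD34, a marker of blood progenitors, moved with 2 of these lines: it was at 46.8 to 716 in neil1 and 1.02 to 157 elsewhere, higher than wt by 5.14 in neil1 line 12 and by 2.64 in neil2 line 11, both called. All 7 blood markers in the table summed in media to 66.4 to 733 in neil1, 36.7 to 188 in neil2, 24 to 35.4 in neil3, at most 52.8 in neil123, 31.6 to 36.9 in unlettered wt and 28.6 to 55.7 in lettered wt. With BSO they summed to 57.3 to 544 in neil1, 31.2 to 159 in neil2, 16.7 to 31.1 in neil3, 20.4 to 41.1 in neil123, 25.8 to 36.4 in unlettered wt and 34 to 42.3 in lettered wt. Without CD34 the sum was 3.9 to 32.2 in all libraries. The part of these markers in the members' values was not tested, and in bulk samples a change in cell makeup and a change in RNA per cell cannot be told apart.

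**Figure D3:**
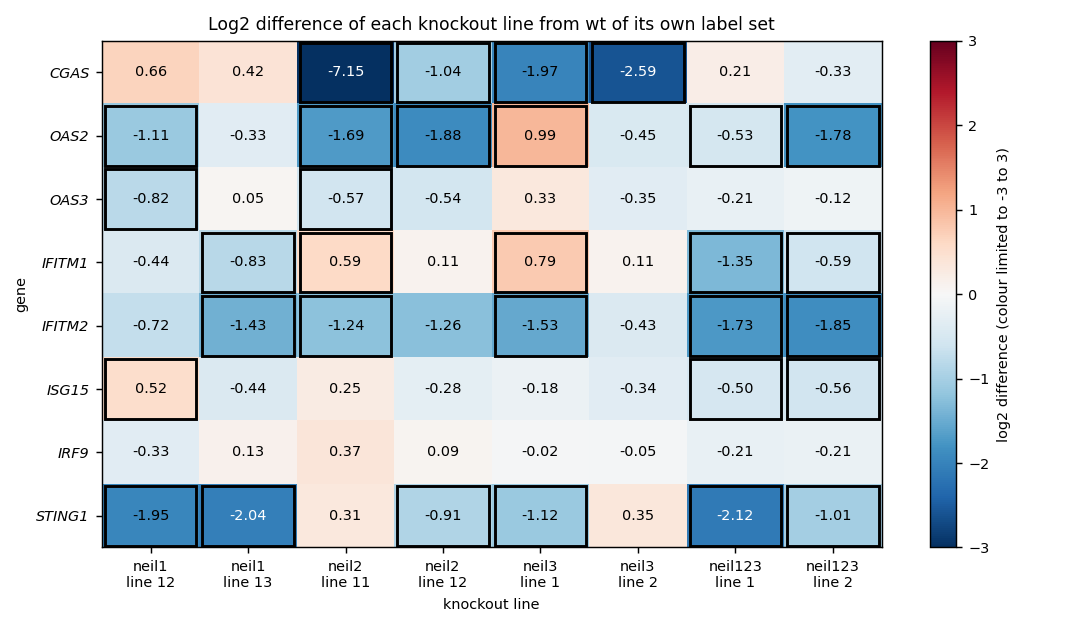
Log2 difference of each knockout line from wt of its own label set for the 7 tested members and STING1, on 1 mean per replicate name, with the colour limited to -3 to 3 and a black frame where the adjusted p was under 0.05. OAS2, IFITM1, IFITM2 and ISG15 are framed in both neil123 lines, and CGAS is framed in both neil2 and both neil3 lines.

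BSO moved the members less than the lines did. The main fit of all 42 libraries does not pair BSO and media libraries of the same replicate name, and a fit that does is given below. In the main fit, 0 of 7 members passed under BSO against media in neil1 (1.29% of all genes were called), neil2 (0.174%), neil3 (6.64%), neil123 (1.70%) and wt (15.7%). By limma, the smallest adjusted p of a member was 0.941 in neil1, 0.835 in neil2, 0.376 in neil3, 0.785 in neil123 and 0.177 in wt. The count was 0 by edgeR as well, and 1 at an unadjusted p under 0.05, IRF9 in wt (-0.30 ± 0.15, adjusted p = 0.177). The share of all genes at that unadjusted threshold is not given here. The differences ranged from -0.30 to 0.43. The only member whose BSO and media libraries did not overlap in a knockout was OAS3 in neil2, at 215, 215 and 212 with BSO and 268, 241 and 271 in media (-0.28; 13.5% of all genes did not overlap there). For neil1, neil3 and neil123 the count was 0 (12.9%, 11.8% and 8.27% of all genes).

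Replicate names are shared between BSO and media, and with the name as a block 5 values passed. These were CGAS in wt (-0.18, adjusted p = 0.0402) and in neil3 (-0.25, adjusted p = 0.0413), IRF9 in wt (-0.30, adjusted p = 0.0349), OAS3 in neil2 (-0.28, adjusted p = 0.0384) and IFITM1 in neil3 (0.43, adjusted p = 0.0419). The share of all genes called with this block is not given here, so the count of members cannot be set against it. CGAS was lower with BSO in every pair of neil1 (3), neil3 (4), neil123 (4) and wt (7), and in 0 of the 3 pairs of neil2. The SE of CGAS in the fit of all 42 libraries includes the spread of neil2. IRF9 in wt was -0.45 without the media library of p1 (adjusted p = 0.0242) and -0.52 without line p1 (adjusted p = 0.0165). IRF9 averaged 42.5 ± 7.03 with BSO and 66.8 ± 22.3 in media in unlettered wt (SD, n = 3 each), and 122 ± 10.2 with BSO and 123 ± 17.1 in media in lettered wt (SD, n = 4 each), so that the means differed in the unlettered set; the sets' changes were not tested against each other.

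The BSO change in a knockout did not differ from that in wt for any member (0 of 7 in each of the 4 knockouts), by limma, by edgeR or at an unadjusted p under 0.05. By limma's adjusted p, 0% of all genes were called. With the replicate block, for which the share of all genes is not given, 1 passed, CGAS in neil2 (0.50, adjusted p = 0.0274), where line 11 had 8 reads in all.

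**Figure D4:**
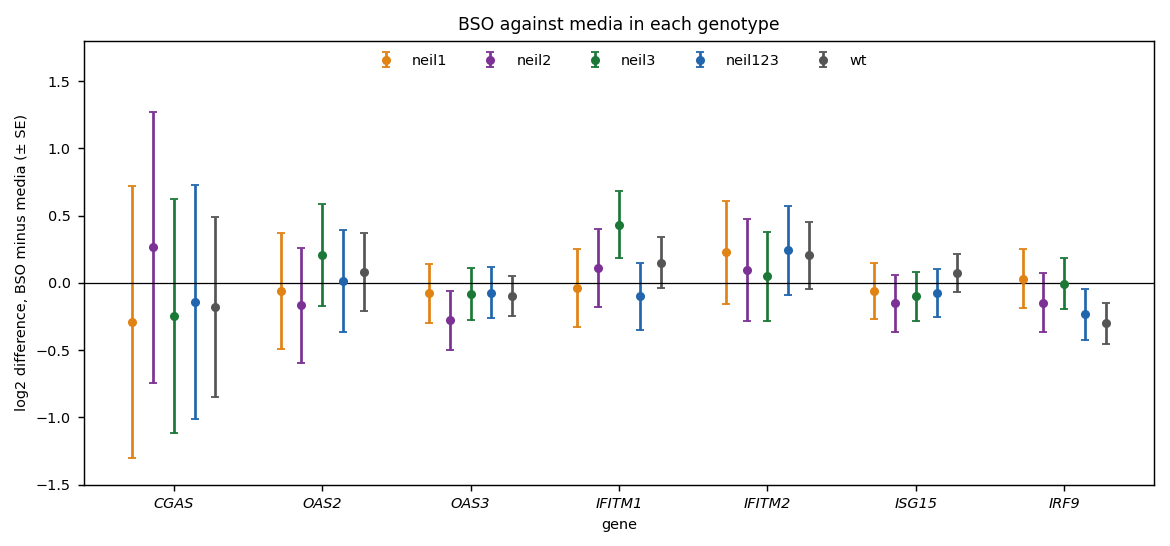
Log2 difference of BSO against media for each tested member (x axis) in each genotype. Bars are 1 SE from the fit of all 42 libraries, which does not pair BSO with media libraries. The points lie between -0.30 and 0.43, and the widest bars are those of CGAS.

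Of the rest of the pathway, STING1, the adaptor that CGAS activates, was low in neil1 and neil123. In media it averaged 34.1 ± 8.06 in neil1 and 138 ± 20.7 in wt (SD, n = 3 each), a difference of -2.00 ± 0.44 (limma, adjusted p = 0.0317), and with BSO the difference was -2.02 (adjusted p = 0.0414). In media it averaged 56.1 ± 26.3 in neil123 and 158 ± 11.9 in wt (SD, n = 4 each), a difference of -1.61 ± 0.38 (adjusted p = 0.00691), and with BSO -1.53 (adjusted p = 0.00952). By line it was lower in neil1 12 (-1.95, adjusted p = 2.53e-07) and 13 (-2.04, adjusted p = 2.44e-08), neil2 12 (-0.91, adjusted p = 0.000925), neil3 1 (-1.12, adjusted p = 1.69e-06), neil123 1 (-2.12, adjusted p = 6.63e-10) and neil123 2 (-1.01, adjusted p = 3.33e-06). In neil2 line 11 and neil3 line 2 it stood at 0.31 (adjusted p = 0.0576) and 0.35 (adjusted p = 0.11).

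CGAS or STING1 was thus called lower in each of the 8 lines, and both in neil2 line 12 and neil3 line 1. This is a description of lines that share wt libraries, by fits added after seeing the data. How often another pair of genes would give such a tally was not counted. Of all genes, 2.21% were called in neil1 line 13 and 22.8% in neil2 line 11. The genotype calls of STING1 were lost with 1 mean per line (neil1 -2.03, adjusted p = 0.103; neil123 -1.61, adjusted p = 0.254, both in media). In neil1 in media they were also lost without the wt 1.1 library (-2.13, adjusted p = 0.0967), the wt 1.3 library (-1.92, adjusted p = 0.157), the neil1 12 library (-1.94, adjusted p = 0.103) or 1 of the 2 libraries of neil1 line 13 (-1.89, adjusted p = 0.106).

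Over all genes in media, 0.300% were called in neil1 and 0.440% in neil3. In neil2 6.22% were called lower, and in neil123 2.39%. Among 16 tested genes of DNA sensing and STING signalling, 1 fell in neil1, 0 passed in neil2 and neil3, and 2 fell in neil123 in media. The second in neil123 was IKBKE, a kinase related to TBK1, at 5.77 ± 5.71 in neil123 and 33.2 ± 6.32 in wt (-2.70 ± 0.40, adjusted p = 1.97e-05). Of 12 RNA sensing genes, 3 fell in neil2 (6.22% of all genes were called lower) and 2 in neil123 (2.39% lower) in media. DDX60, an interferon-induced helicase, was among both, at 13.3 ± 5.48 in neil2 and 41.2 ± 1.62 in wt (-1.63, adjusted p = 0.00346; -1.05 and adjusted p = 0.314 without line 11), and at 12.9 ± 3.04 in neil123 and 35.4 ± 3.40 in wt (-1.41, adjusted p = 0.00267). ZC3HAV1 (-0.25) and ADAR (-0.20) fell in neil2, and ZNFX1 (-0.16) fell in neil123, by small amounts.

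Of 20 genes of interferon receptors and JAK-STAT signalling, 1 rose and 1 fell in neil2 in media, where 6.22% of all genes were called lower. There 0 passed in neil1 (0.300% of all genes were called), neil3 (0.440%) and neil123 (2.39% lower). The receptor gene IFNLR1 was the one that rose, with means of 385 in neil2 and 297 in wt (0.38 ± 0.09, adjusted p = 0.00734). IRF8, a transcription factor, was the one that fell, at 27.1 ± 46.1 in neil2 and 61.2 ± 9.86 in wt (n = 3 each), with groups that overlapped; it is named after its values were seen. IRF3, IFNAR1 and IFNAR2 passed in no genotype comparison of knockout and wt or of BSO and media.

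STAT2, which joins IRF9 in ISGF3, was higher with BSO in neil3 (0.42 ± 0.07, adjusted p = 0.000301), neil123 (0.32 ± 0.07, adjusted p = 0.0134) and wt (0.25 ± 0.06, adjusted p = 0.00249). It stood at 0.27 in neil1 (adjusted p = 0.134) and 0.16 in neil2 (adjusted p = 0.641). The BSO change of STAT2 in the knockouts did not pass against that in wt, with differences of -0.06 to 0.16. The 10 listed interferon genes, IFNB1 and IFNL1 among them, had no entry under their symbols in the matrix. They could not be judged, and a missing entry does not show that a gene had no reads.

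Of 34 other interferon-stimulated genes with a mean of 10 or more (52 were listed), 0 passed in media in neil1 (0.300% of all genes) and neil3 (0.440%). In media 1 rose and 2 fell in neil2 (6.22% of all genes were called lower), and 1 fell in neil123 (2.39% lower). SP110 stood at 110.2 ± 28.6 in neil2 and 237 ± 24.4 in wt (-1.13, adjusted p = 0.0264), and DTX3L at 224 ± 40.8 in neil2 and 363 ± 43.8 in wt (-0.70, adjusted p = 0.0193). LGALS3BP rose in neil2 (0.28, adjusted p = 0.0429), and PML fell in neil123 (-0.29, adjusted p = 0.000827). With BSO, 1 fell in neil1 (0.202% of all genes were called) and 0 passed in neil3 (0.405%). Also with BSO, 1 rose and 8 fell in neil2 (8.43% of all genes were called lower), and 2 rose and 2 fell in neil123 (3.57% lower). The median of these 34 genes in media was -0.05 in neil1, -0.08 in neil2, -0.04 in neil3 and -0.08 in neil123, close to 0 as for all genes. By line, 7 rose and 10 fell in neil2 line 11 (22.8% of all genes were called). In neil2 line 12 3 fell (2.48%). In neil1 5 fell in line 12 (4.65%) and 1 in line 13 (2.21%). In neil3 1 rose and 1 fell in line 1 (4.08%), and 4 fell in line 2 (3.17%). In neil123 line 1, 1 rose and 7 fell (5.01% of all genes were called lower). In neil123 line 2, 1 rose and 2 fell (9.76% in either direction).

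Of 13 antigen presentation genes, 1 fell in neil2 (6.22% of all genes were called lower) and 1 in neil123 (2.39% lower) in media. With BSO, 5 fell in neil2, where 8.43% of all genes were called lower, and 2 in neil123 (3.57% lower), and 0 passed in neil1 and neil3. Under BSO against media 3 rose and 0 fell in wt, where 15.7% of all genes were called in either direction. In that comparison 3 RNA sensing genes fell in wt, 1 in neil1 (1.29% of all genes) and 1 in neil3 (6.64%), and 0 rose. Of the other interferon-stimulated genes, 2 fell in wt, 2 fell in neil3 and 1 rose in neil123 (1.70%). Among receptor and JAK-STAT genes 1 rose and 1 fell in each of wt and neil123, and 1 rose in neil3. Of the DNA sensing genes 1 rose, in neil3. PSMB8, a subunit of the immunoproteasome, stood at 10.3 ± 3.64 in neil2 and 104 ± 22.6 in wt (-3.23, adjusted p = 0.0201). It was called lower in both neil2 lines (-3.49 in line 11 and -3.03 in line 12). NLRC5, an activator of MHC class I genes, stood at 119 ± 26.1 in neil123 and 267 ± 17.8 in wt (-1.18, adjusted p = 0.000955), and was called lower in both neil123 lines (-1.41 in line 1 and -1.05 in line 2). With 1 mean per line the genotype calls were lost for DDX60 (adjusted p = 0.129), ZNFX1 (adjusted p = 0.355) and PML (adjusted p = 0.10) in neil123, for LGALS3BP (adjusted p = 0.0988, called in 52 of 67 settings) in neil2, and for SP110 (adjusted p = 0.0711), DTX3L (adjusted p = 0.0929), PSMB8 (adjusted p = 0.069) and NLRC5 (adjusted p = 0.168). Without line 11, neil2 in media rests on 1 library. Its differences were then -0.80 for SP110, -0.42 for DTX3L, -0.18 for ADAR and -2.74 for PSMB8. They were 0.22 for LGALS3BP and 0.44 for IFNLR1.

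**Figure D5:**
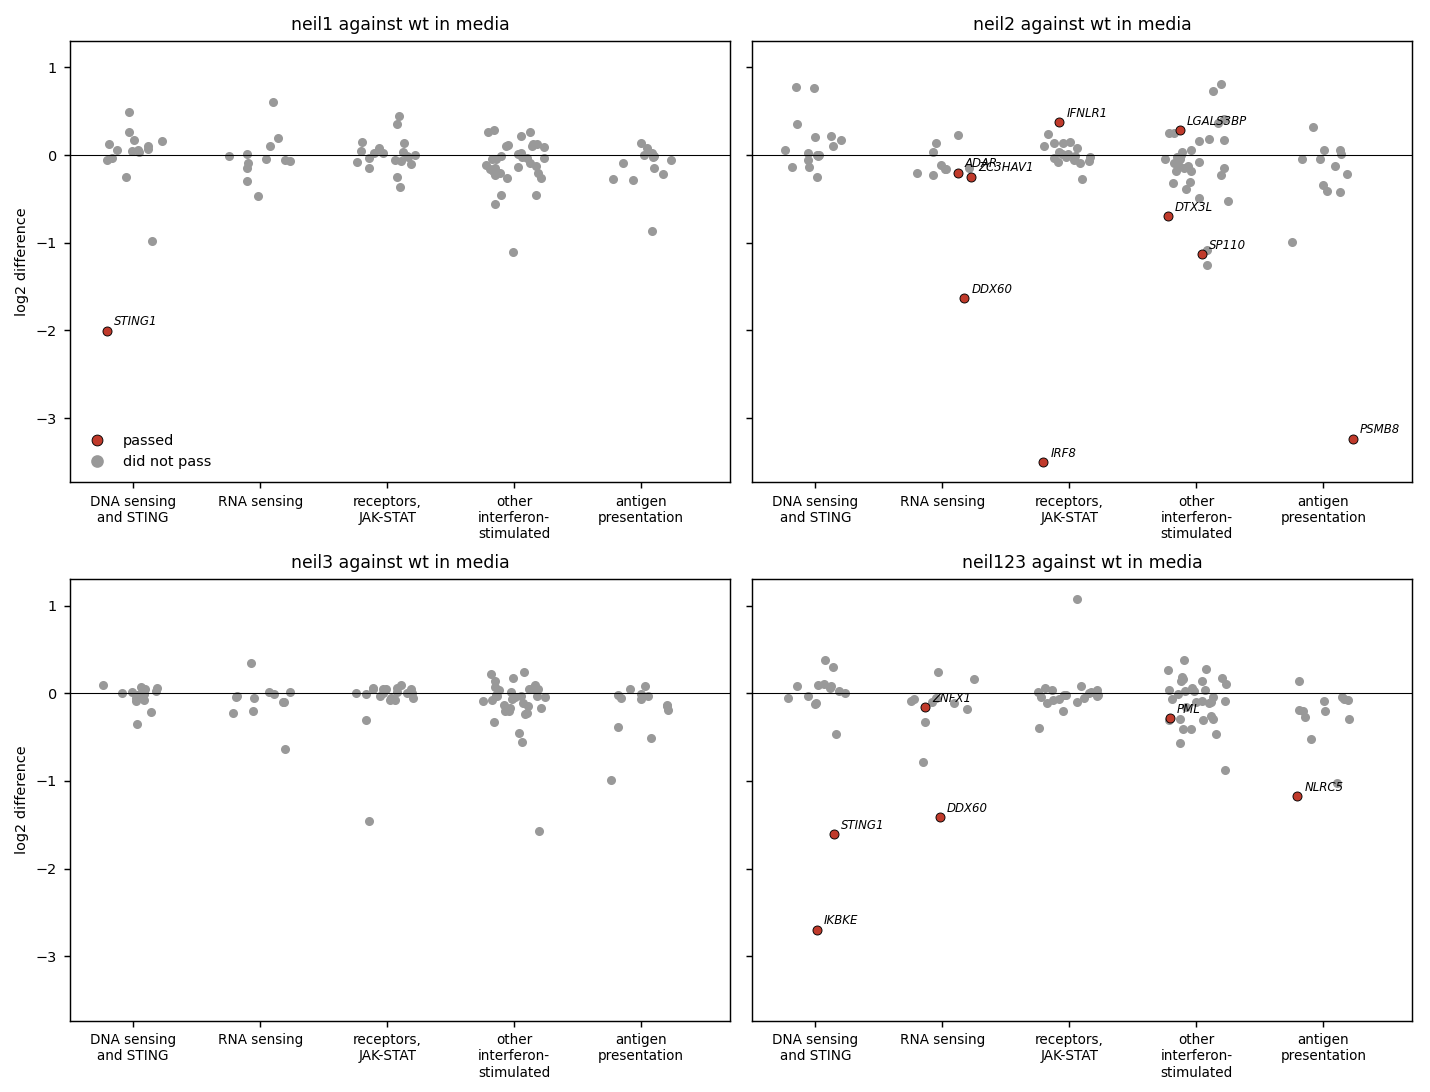
Log2 difference of each knockout from wt in media for the tested genes of 5 lists (columns of points within a panel), with genes that passed in red and labelled. STING1 lies at -2.00 in neil1 and -1.61 in neil123, and no gene of these lists passed in neil3.

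For each library, log2(value + 1) was taken minus the mean of the wt libraries of its label set and treatment. By Pearson r of these differences over the 42 libraries, the genes most like CGAS were PTPRN2 (0.907), SLC19A3 (0.885), OSMR (0.870), GPR176 (0.870) and SMTN (0.867). In media PTPRN2 differed from wt by -4.64 in neil2 and -1.22 in neil3, and SLC19A3 by -4.34 in neil2 and -4.32 in neil3. OSMR (-3.05 in neil2 and 0.17 in neil3) and SMTN (-1.61 and 0.05) were low in neil2 and not in neil3. GPR176 differed by -0.59 in neil2 and -0.22 in neil3. The 4 libraries of neil2 line 11 lay far under all others in CGAS, so they weigh heavily on every r with CGAS. Most like the mean of the tested interferon-stimulated members were RAC2 (0.857), ATP10A (0.844), GIPC3 (0.841), ARHGAP6 (0.829) and PXDN (0.826). RAC2 differed by -1.98 in neil123 and 0.36 in neil3.

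Among the members, the r of these differences from wt was 0.72 for OAS2 and OAS3 and -0.58 for CGAS and IFITM1. It was 0.48 for IFITM1 and ISG15, and 0.41 for IFITM2 and ISG15. These values describe 42 libraries that share lines, label sets and depth, and carry no test.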

How the data were processed

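RNA of 42 HAP1 libraries was read from 1 deposited table of the authors' normalized signal (read counts per gene divided by size factors). Per the submitters' processing notes, Trim Galore, HISAT2, SAMtools, featureCounts and DESeq2 were used with GRCh38 (hg38); the sources used here give neither their versions nor the strand setting of the counting. The table held 30182 entries, 9667 of them without a symbol (0.868% to 1.25% of reads), and these were left out. Whole reads were recovered for 100% of the values (relative tolerance 1e-06), giving 26.8 M to 30.7 M reads per library, so that values of a few reads carry a wide counting error.

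The members and the gene lists were chosen with earlier results of these data known. The test was limma 3.58.1 (R 4.3.3) with an intensity trend on log2(value + 1) for 14331 genes with a mean of 10 or more, with 12 group means in 1 fit of 42 libraries, and a Benjamini-Hochberg adjusted p under 0.05 over all genes as the threshold. A fold change on this scale understates the change of low genes. Comparisons were each knockout against wt of its label set under each treatment, BSO against media in each genotype (in wt, the mean over the label sets), and the difference of those changes. Fits by line, on 1 mean of log2 values per replicate name (21 names), were added after seeing the data. Members were named whatever their test. Other list genes were named when they passed in media without overlap, up to 4 for a list and knockout, and a few (STING1, IRF3, STAT2, IFNAR1, IFNAR2, IFNB1 and IFNL1) regardless; 1 further gene is not reported here.

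Replicate names pair BSO with media libraries. The deviations of paired libraries from their group's mean correlated across genes (r = 0.193 to 0.849, 21 pairs), and for 21 of 21 the best match was the library of the same name, so the names were taken to pair them. Libraries of a group differed by more than sampling noise (chi-square over its degrees of freedom 2.78 to 32.3). Alternatives were the replicate block, other label-set terms, fits of only the compared groups, line as a random block or 1 mean per line, pseudocounts of 0.5 and 5, other filters, other scalings (equal totals, TMM), a robust spread, edgeR 4.0.16 on the recovered reads, and leaving out each library or line. The fit of 12 groups was also run on simulated counts. These were drawn independently for each library, without lines or pairs, so that run does not check how either affects the tests. The fits by line were not run on them. Promoter sequences are from RefSeq (GRCh38.p14) and gene positions from GENCODE 29.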

Additional observations from a re-analysis of the deposited data

Results flagged for a closer look

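The 2 lines of each knockout were set against each other, and 10 values differed. In neil1, line 12 minus line 13 was 0.96 for ISG15 (limma, adjusted p = 0.000846), -0.87 for OAS3 (adjusted p = 0.00248) and -0.78 for OAS2 (adjusted p = 0.041). In neil2, line 11 minus line 12 was -6.11 for CGAS (adjusted p = 1.63e-11) and 0.54 for ISG15 (adjusted p = 0.0417). In neil3, line 1 minus line 2 was 1.45 for OAS2 (adjusted p = 3.59e-05), 0.68 for OAS3 (adjusted p = 0.0024), 0.68 for IFITM1 (adjusted p = 0.0407) and -1.10 for IFITM2 (adjusted p = 0.0331). In neil123, line 1 minus line 2 was 1.25 for OAS2 (adjusted p = 0.00088). All 3 values of neil1 and both values of neil2 involve a line with 1 replicate name.

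In lettered wt with BSO, the CGAS value of library 1.1A, 476, stood apart from the other 3 (515 to 523), with a gap of 0.832 of the group's range. This was the only such value among the 42 sets of 4 libraries examined (7 members in 6 groups), and chance alone would give about 1 in 20 sets.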

How the results depend on the processing

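Of 10827 values of a member under an alternative, 10577 kept their side of the threshold, 165 lost a call and 85 gained one. No value that was called in either fit changed sign. Among the 10577, 233 values called in neither fit did change sign. Members called over the 4 knockouts numbered 5 in media, 2 with 1 mean per line and 3 with a minimum mean of 50, where IFITM2 was not tested. With BSO they numbered 7, and 2 with 1 mean per line. BSO against media gave 0, 1 with only the compared groups (CGAS in wt, -0.18, adjusted p = 0.0338) and 5 with the replicate block; the difference of BSO changes gave 0, and 1 with that block. For knockouts against wt the block gave 5 in media and 8 with BSO, and changed no call other than those given above. Leaving out 1 library gave 3 to 6 in media, 5 to 8 with BSO, 0 to 1 for BSO against media and 0 for the difference; leaving out 1 line gave 2 to 7, 3 to 9, 0 to 1 and 0. Leaving out 1 replicate name gave 22 to 26 calls of lines against wt (25 with all), 5 to 11 between lines (10 with all; 5 without neil3 2A and 6 without 2B) and 2 to 4 between label sets (3 with all). Scaling to equal totals moved the median of all genes by at most 0.0959 and TMM by 0.0302. Line explained part of the spread within groups (correlation of 0.226 as a random block). Low counts limit IFITM2, IFITM1 and CGAS in neil2 line 11.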
